A study of Homo sapiens with 6 samples.

Results

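The genes described here copy the genome and open the gate to S phase. They are 37 genes for the helicase MCM2 to MCM7, the factors that load and activate it, DNA polymerases and their clamp, fork protection, nucleotide supply and the cyclin E and E2F switch from G1 to S. They were taken by gene symbol from a table of 62753 genes, and each of the 37 symbols matched 1 gene. Messenger RNA of a cell line labelled HepG2, a human hepatocellular carcinoma line, was sequenced in 6 libraries. The 3 WT libraries carry the genotype WT. The 3 sgPARP1 libraries come from cells with the genotype PARP1 KO, in which PARP1, whose enzyme binds DNA breaks and attaches ADP-ribose chains to proteins, was disrupted with CRISPR-Cas9. The labels name no treatment, time or culture batch, and do not say whether the WT cells received a control guide, whether the edited cells are 1 clone or many, or if the libraries of a group came from separate cultures. The p-values therefore reflect spread among these libraries alone, and that spread may be technical.

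Before S phase, the origin recognition complex, CDC6 and CDT1 load the MCM2 to MCM7 ring onto origins in an inactive form. CDC45 and the GINS complex then join the ring and make it the working helicase, which polymerases follow with the sliding clamp PCNA. Cyclin E and its kinase relieve E2F factors from the retinoblastoma protein, and E2F factors in turn raise transcription of most of these genes in late G1. PARP1 acts at nicks and stalled forks in S phase, and the study compares cells with and without it.

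The libraries held 14842498 to 17305129 reads, worked out from the deposited FPKM, a measure that divides reads by gene length and by library total. PARP1 itself fell by 86.4%, its WT mean being 31.6 ± 0.17 FPKM and its sgPARP1 mean 4.31 ± 0.083 FPKM (SD, n = 3 each). The markers of hepatocytes were nearly absent from all 6 libraries. None of 13 had a mean of at least 0.5 FPKM, their sum was at most 0.294 FPKM in a library, and 8, ALB and AFP among them, were listed at 0 throughout. A listed 0 can be a failed estimate. These values do not bear out the liver origin in the HepG2 label, and the identity of the cells was not tested. Of 5 epithelial markers 4 reached a mean of 0.5 FPKM, with sums of 504 to 561 FPKM in WT and 424 to 466 FPKM in sgPARP1. The sum is nearly all KRT8, which fell from 268 ± 14 to 222 ± 8.9 FPKM (limma adjusted p = 0.0243), and KRT18, at 255 ± 16 and 223 ± 13 FPKM (limma adjusted p = 0.111). KRT19 averaged 2.88 FPKM over the 6 libraries, EPCAM 0.515 FPKM and CDH1 0.123 FPKM, and all 3 overlapped between the groups. The 5 fibroblast markers summed to 18.1 to 19.9 FPKM in WT and 18.3 to 20.8 FPKM in sgPARP1, mostly COL1A1, and COL1A2 was listed at 0. Within that sum DCN fell from 1.07 ± 0.081 to 0.296 ± 0.07 FPKM (limma adjusted p = 0.00877), while PDGFRB was at 2.67 ± 0.41 and 3.43 ± 0.15 FPKM without overlap (limma adjusted p = 0.111). Endothelial and leukocyte marker sums stayed under 0.5 FPKM in every library. The part of these marker differences in the results below was not tested.

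The promoters of the 3 members that passed the test, RRM2, GINS1 and GINS2, are shown because E2F and CCAAT-binding factors are the textbook regulators of S phase promoters. Each window runs from 250 bases before to 50 bases after the first start that RefSeq lists (GRCh38.p14), read 5′ to 3′ along the gene. Capitals mark the letters of an E2F site (TTTCCCGC, TTTCGCGC, TTTGCCGC or TTTGGCGC), a CHR element (TTTGAA) or a CCAAT box (CCAAT), searched on both strands.
RRM2, chr2:10122489-10122788, plus strand: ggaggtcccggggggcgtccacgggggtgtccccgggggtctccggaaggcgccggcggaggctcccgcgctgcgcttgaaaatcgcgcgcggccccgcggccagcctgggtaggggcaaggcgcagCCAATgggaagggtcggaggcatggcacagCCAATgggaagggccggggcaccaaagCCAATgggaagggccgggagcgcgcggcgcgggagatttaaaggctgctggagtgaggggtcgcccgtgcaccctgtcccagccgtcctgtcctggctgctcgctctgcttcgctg
GINS1, chr20:25407423-25407722, plus strand: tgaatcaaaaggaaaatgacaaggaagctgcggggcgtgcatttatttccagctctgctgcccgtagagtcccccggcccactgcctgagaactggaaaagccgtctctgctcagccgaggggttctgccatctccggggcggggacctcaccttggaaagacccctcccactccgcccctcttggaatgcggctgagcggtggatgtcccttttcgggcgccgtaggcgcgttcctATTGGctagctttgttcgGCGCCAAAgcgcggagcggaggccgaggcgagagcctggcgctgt
GINS2, chr16:85688905-85689204, minus strand: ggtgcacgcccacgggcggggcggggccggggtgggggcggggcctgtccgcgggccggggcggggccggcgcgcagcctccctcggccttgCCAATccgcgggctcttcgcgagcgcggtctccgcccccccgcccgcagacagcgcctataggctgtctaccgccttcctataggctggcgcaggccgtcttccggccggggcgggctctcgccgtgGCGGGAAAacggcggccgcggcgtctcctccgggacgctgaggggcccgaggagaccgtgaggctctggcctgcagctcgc
The RRM2 window holds 3 CCAAT boxes, beginning 123, 93 and 66 bases before the start, and no letters of the E2F site. The GINS1 window has an inverted CCAAT box 13 bases before the start and an inverted E2F site that begins 5 bases after the first transcribed base. The GINS2 window has an inverted E2F site 31 bases before the start and a CCAAT box 158 bases before it. No CHR element, which marks many G2 and mitotic promoters, was in these 3 windows.

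Of the 37 members, 32 had a window in the promoter table. MCM4, MCM5, GINS4, E2F8 and CCNE2 are not in it. An E2F site was found in 19 of the 32, or 59.4%, against 3.33% of 27305 promoters of the same length. A CCAAT box was found in 23, or 71.9%, against 35.7% of all promoters, and a CHR element in 1, RRM1, against 15.4%. The median log2 fold change was 0.11 in the 18 tested members with an E2F site and 0.12 in the 13 without one, on the log2(FPKM + 1) scale used for all log2 fold changes here. All 3 sgPARP1 values lay above all 3 WT values in 7 of the 18 and in 7 of the 13. The median was 0.12 in the 23 with a CCAAT box, 12 of them separated in this way and 3 past the test, and 0.07 in the 8 without, 2 of them separated and 0 past the test. Of all tested genes, 16.1% were separated in this way and 3.52% passed the test as higher. The differences between members with and without a motif were not tested. All 4 MCM2 to MCM7 promoters in the table hold an E2F site, and none of these 4 genes passed the test.

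Most replication transcripts were slightly higher in sgPARP1, and few passed the test. Of 36 members tested, 3 rose and none fell, by limma's moderated test over 13167 genes with Benjamini-Hochberg adjustment at 0.05, while 3.52% of all tested genes rose, 4.44% fell and 7.96% passed in either direction. The increase was 1.23-fold for RRM2, 1.18-fold for GINS1 and 1.16-fold for GINS2. Before adjustment, 17 of the 36 were higher and none lower at a p under 0.05, against 12.1% higher and 12.3% lower of all tested genes. All 3 sgPARP1 values lay above all 3 WT values in 17 members, against 16.1% of all tested genes, and all 3 lay below in none, against 14.9%. The log2 fold change was above 0 in 32 of the 36, against 50.9% of all tested genes. Its median was 0.11 over the members and 0.00292 over all tested genes. In bulk RNA, more cells in S phase and more RNA per cell cannot be told apart.

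The differences were small for each gene, and 12 of the 36 had a mean FPKM ratio above 1.1. The share of all tested genes above that ratio was not counted. The upper quartile of the log2 fold change was 0.16 over the members and 0.097 over all tested genes. The list as a whole took 0.843%, 0.839% and 0.836% of the reads in the WT libraries and 0.894%, 0.894% and 0.896% in the sgPARP1 libraries. The groups did not overlap, and the sgPARP1 share was 1.07 times the WT share. RRM1 alone holds a large part of these reads. Without RRM1 the WT shares were 0.649%, 0.632% and 0.627% and the sgPARP1 shares 0.673%, 0.663% and 0.673%. MCM2 to MCM7 together differed less, at 0.291% to 0.309% in WT and 0.303% to 0.312% in sgPARP1, and these ranges overlap.

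**Figure D1:**
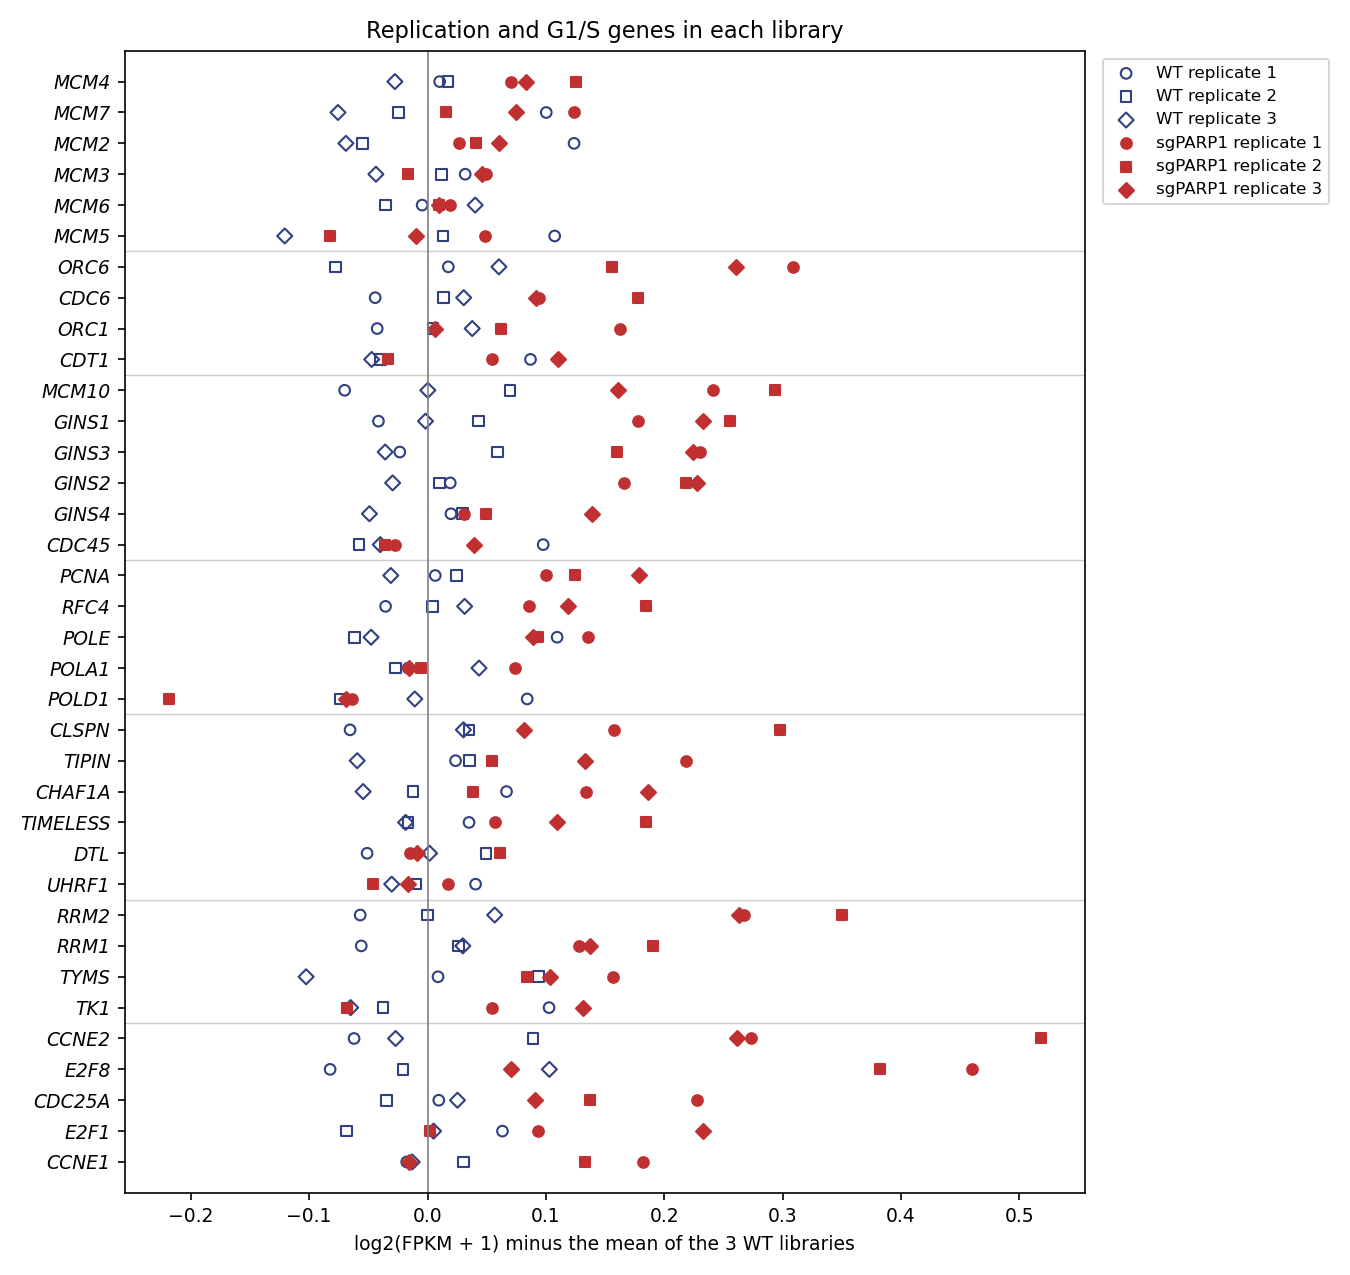
Each row is 1 member, in its role group, and each symbol 1 library, as log2(FPKM + 1) minus the mean of the 3 WT libraries. In 17 rows all 3 filled sgPARP1 symbols lie to the right of all 3 open WT symbols, and in no row do they all lie to the left.

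Of the members, RRM2, a nucleotide supply gene, had the lowest limma adjusted p, and the other nucleotide supply genes did not pass. Ribonucleotide reductase makes deoxynucleotides from ribonucleotides, with RRM1 as its large catalytic subunit and RRM2 as the small radical subunit made in S phase. RRM2 (ENSG00000171848, plus strand of chromosome 2, 10120698 to 10211725 in hg38) was at 24.1, 25.1 and 26.1 FPKM in WT and at 30.4, 32.3 and 30.3 FPKM in sgPARP1. The lowest sgPARP1 library was above the highest WT library, on 3604 to 4783 reads per library. This is a log2 fold change of 0.29, standard error 0.0458 (limma adjusted p = 0.0134). Leaving out WT replicate 2 or sgPARP1 replicate 1 ended the call (limma adjusted p = 0.0619 and 0.0536), with log2 fold changes of 0.29 and 0.31.

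RRM1 was the most abundant member, at 459, 486 and 487 FPKM in WT and 522, 545 and 525 FPKM in sgPARP1. Its groups did not overlap either, and its ratio of 1.11 just missed the threshold (limma adjusted p = 0.0552). Within a library the ratio of RRM2 to RRM1 FPKM was 0.0525, 0.0516 and 0.0537 in WT and 0.0583, 0.0592 and 0.0577 in sgPARP1. This ratio, which does not depend on how libraries are scaled to each other, also separated the groups. RRM2 had already passed the test, so the ratio is no separate support. TYMS, which makes thymidylate from deoxyuridylate, and TK1, which salvages thymidine, overlapped between groups. TYMS was at 24.8 ± 1.7 FPKM in WT and 26.9 ± 0.73 FPKM in sgPARP1, and TK1 at 153 ± 9.8 and 158 ± 11 FPKM (SD, n = 3 each). Of the exon bases of TYMS, 39.1% also lie in exons of ENOSF1 on the other strand, so its value may hold reads of that gene, whose log2 fold change was −0.02.

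Helicase activation was the role with most separated members, 5 of 6, GINS4 only narrowly. Of all tested genes, 16.1% were separated as higher. The GINS complex has 4 subunits, GINS1 to GINS4, which bind the MCM ring together with CDC45. GINS1 (ENSG00000101003, plus strand of chromosome 20, 25391008 to 25452700) was at 12.1, 12.9 and 12.5 FPKM in WT and 14.3, 15.1 and 14.9 FPKM in sgPARP1. GINS2 (ENSG00000131153, minus strand of chromosome 16, 85676198 to 85690073) was at 20.9, 20.8 and 20.2 FPKM in WT and 23.3, 24.2 and 24.4 FPKM in sgPARP1. Neither gene's groups overlapped. The log2 fold changes were 0.22 for GINS1, with a standard error of 0.0436 (limma adjusted p = 0.0282), and 0.20 for GINS2, with a standard error of 0.0376 (limma adjusted p = 0.0237). Both calls need all 6 libraries: the limma adjusted p was 0.0721 to 0.0882 for GINS1 and 0.0538 to 0.0859 for GINS2 when any 1 library was left out.

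GINS3 and GINS4 did not pass. GINS3 was at 3.72, 4.0 and 3.68 FPKM in WT and 4.63, 4.36 and 4.60 FPKM in sgPARP1, a ratio of 1.19 without overlap (limma adjusted p = 0.0669). GINS4 was at 11.2, 11.3 and 10.6 FPKM in WT and 11.3, 11.4 and 12.2 FPKM in sgPARP1, a ratio of 1.06 (limma adjusted p = 0.406). The 4 subunits of this complex thus kept the order GINS2, GINS1, GINS4, GINS3 in both group means of FPKM. Neighbours in the order are apart by more than their SD. The WT means were 20.7, 12.5, 11.0 and 3.80 FPKM, with SDs of 0.17 to 0.40. The order also rests on the deposited gene lengths, whose error the SD does not cover. For GINS1 that length was 8017 bases against 4068 GENCODE exon bases, and for GINS2 3219 against 3264. GINS1 had more reads than GINS2 in every library, 1677 against 1164 in WT replicate 1. Which of GINS1 and GINS2 is higher therefore depends on the length used.

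CDC45 and MCM10 act beside GINS, and neither passed. CDC45 was at 20.6, 18.4 and 18.6 FPKM in WT and 18.8, 18.7 and 19.7 FPKM in sgPARP1, and the groups overlapped. Its log2 fold change was −0.01, with a 95% interval of −0.14 to 0.12. MCM10, a scaffold for helicase activation, was at 10.2, 11.4 and 10.8 FPKM in WT and 12.9, 13.4 and 12.2 FPKM in sgPARP1, without overlap and just short of the threshold (limma adjusted p = 0.054). Set against CDC45 in the same library, GINS1 was at 0.589, 0.703 and 0.671 in WT and 0.760, 0.810 and 0.754 in sgPARP1. GINS2 over CDC45 was at 1.02, 1.13 and 1.09 in WT and 1.24, 1.30 and 1.24 in sgPARP1. Both ratios separated the groups, and WT replicate 1, where CDC45 was highest, had the lowest of each. GINS1 and GINS2 had passed the test and CDC45 was added after its values were seen, so these ratios are no separate support. They were not corrected for GC content.

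**Figure D2:**
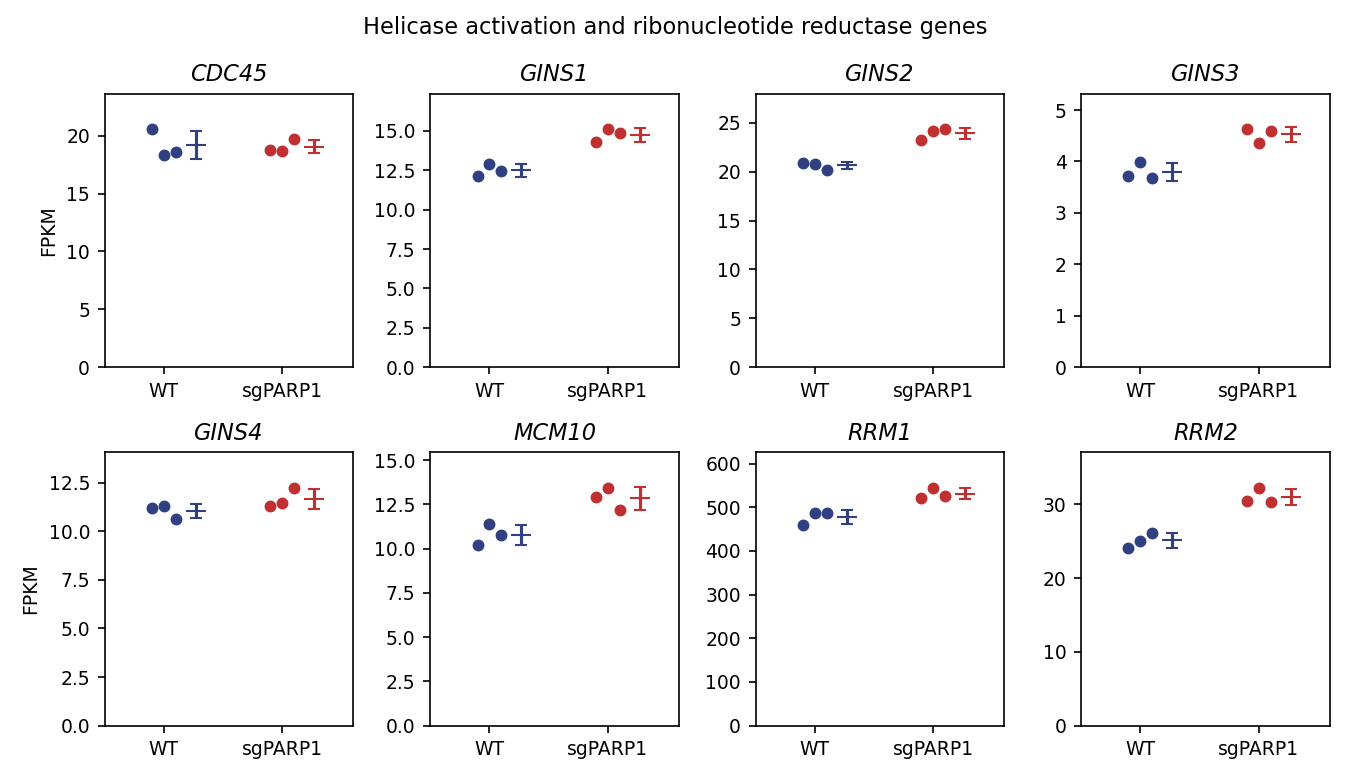
FPKM of CDC45, the 4 GINS subunits, MCM10 and the ribonucleotide reductase subunits, with 1 point per library and the mean ± SD of each group of 3 beside the points; each axis starts at 0. The groups do not overlap for any gene shown except CDC45, narrowly so for GINS4, and the ratio of means is at most 1.23, for RRM2.

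The 6 subunits of the helicase ring differed little, and none passed. Their ratios of mean FPKM ran from 0.988 for MCM5 to 1.07 for MCM4, and the median log2 fold change was 0.03. MCM4 was the only one whose groups did not overlap, at 68.9, 69.2 and 67.1 FPKM in WT and 71.9, 74.7 and 72.5 FPKM in sgPARP1 (limma adjusted p = 0.146). MCM3, the most abundant subunit by FPKM, was at 175, 172 and 166 FPKM in WT and 177, 169 and 176 FPKM in sgPARP1, with overlap. The 95% intervals of the 6 log2 fold changes lie between −0.17 and 0.20, so a rise of the ring subunits above 1.15-fold is outside them. These intervals are without the correction for GC content given below. With it MCM2 moved from 0.04 to 0.09, MCM7 from 0.07 to 0.11 and MCM5 from −0.01 to 0.02. MCM4 moved from 0.09 to 0.08 and MCM6 from 0.01 to −0.01, MCM3 stayed at 0.03, and none passed. The order of WT means was MCM3, MCM7, MCM2, MCM4, MCM6 and MCM5, at 171, 151, 86.3, 68.4, 56.4 and 39.5 FPKM. The sgPARP1 means kept that order, at 174, 158, 88.7, 73.0, 56.9 and 39.1 FPKM. These levels rest on the gene lengths in the table, which were 9852 bases for MCM4 and 7268 for MCM5 against 3645 for MCM3. The sum of the 4 GINS subunits over the sum of MCM2 to MCM7 was 0.0802, 0.0863 and 0.0851 in WT and 0.0893, 0.0953 and 0.0945 in sgPARP1, so this FPKM ratio separated the groups. The ratio was not corrected for GC content. Some of its genes were added after their values were seen, so it is no separate support.

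None of the 4 licensing factors passed. ORC6, the smallest subunit of the origin recognition complex, was at 12, 11.2 and 12.4 FPKM in WT and 15.0, 13.4 and 14.4 FPKM in sgPARP1. Its groups did not overlap, and its ratio of 1.2 just missed the threshold (limma adjusted p = 0.0544). CDC6, the loader that brings the ring to the origin complex, had a ratio of 1.09, also without overlap (limma adjusted p = 0.137). CDT1, its partner in loading, was at 69.6, 63.6 and 63.3 FPKM in WT and 68.0, 63.9 and 70.7 FPKM in sgPARP1, with overlap. ORC1, another subunit of the origin recognition complex, was at 25.5 ± 0.74 and 27 ± 1.5 FPKM (SD, n = 3 each), also with overlap.

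None of the 5 polymerase and clamp genes passed. PCNA, the clamp that keeps polymerases on DNA, was at 225, 228 and 219 FPKM in WT and 240, 244 and 253 FPKM in sgPARP1. The groups did not overlap, at a ratio of 1.1 (limma adjusted p = 0.0644). RFC4, part of the complex that loads PCNA, had the same ratio of 1.1 without overlap (limma adjusted p = 0.112). POLD1, the catalytic subunit of polymerase delta, was at 46.3, 41.4 and 43.2 FPKM in WT and 41.7, 37.3 and 41.5 FPKM in sgPARP1. It overlapped between groups at a log2 fold change of −0.12, with a 95% interval of −0.26 to 0.03 (limma adjusted p = 0.294). The catalytic subunits of polymerase epsilon, POLE, and polymerase alpha, POLA1, had log2 fold changes of 0.11 and 0.02, both with overlap.

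Among the 6 fork protection and chromatin genes none passed and 3 separated the groups, all higher in sgPARP1. Of all tested genes, 3.52% passed as higher and 16.1% were separated as higher. CLSPN, the adaptor that carries the checkpoint signal to CHEK1, was at 8.53, 9.22 and 9.19 FPKM in WT and 10.1, 11.3 and 9.56 FPKM in sgPARP1 (limma adjusted p = 0.159). TIMELESS and TIPIN, which form a complex that holds the fork together, separated the groups too, at ratios of 1.09 and 1.11. CHAF1A, which lays histones behind the fork, had a ratio of 1.09 with overlap. UHRF1, which brings DNA methyltransferase to newly copied DNA, was at 47.2, 45.5 and 44.9 FPKM in WT and 46.4, 44.4 and 45.3 FPKM in sgPARP1. DTL, which directs the destruction of CDT1 in S phase, was equally close, at 26.2 ± 0.95 and 26.5 ± 0.81 FPKM (SD, n = 3 each). The log2 fold changes of UHRF1 and DTL were −0.02 and 0.01, each with an interval reaching no further than −0.10 and 0.12.

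None of the 5 tested switch genes passed. CCNE2, 1 of the 2 cyclins E that drive the kinase CDK2 at the G1/S border, had a log2 fold change of 0.35, standard error 0.0841, and a ratio of mean FPKM of 1.34. It was at 4.66, 5.29 and 4.8 FPKM in WT and 6.15, 7.47 and 6.09 FPKM in sgPARP1, without overlap (limma adjusted p = 0.0531). Of its exon bases 37.0% also lie in exons of INTS8 on the other strand, so reads of INTS8, at a log2 fold change of 0.08, may be among them. CCNE1 was at 3.04, 3.17 and 3.05 FPKM in WT and 3.63, 3.48 and 3.04 FPKM in sgPARP1, where replicate 3 fell inside the WT range. The ratio of CCNE2 to CCNE1 was 1.54, 1.67 and 1.58 in WT and 1.69, 2.15 and 2.0 in sgPARP1.

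E2F1, the activator that cyclin E sets free, was at 27.3, 24.8 and 26.1 FPKM in WT and 27.9, 26.1 and 30.8 FPKM in sgPARP1, with overlap (limma adjusted p = 0.371). CDC25A, the phosphatase that activates CDK2, separated the groups at a ratio of 1.12 (limma adjusted p = 0.112). E2F8, a repressor that shuts E2F targets off late in S phase, was low, at 0.897, 0.980 and 1.16 FPKM in WT and 1.76, 1.62 and 1.11 FPKM in sgPARP1. It overlapped through sgPARP1 replicate 3 and rests on 64 to 114 reads per library. Its ratio of mean FPKM was 1.48 and its log2 fold change 0.30, standard error 0.121 (limma adjusted p = 0.185). Because it is low, that log2 fold change was 0.51 with a pseudocount of 0.1, against 0.41 for CCNE2, so the order of these genes depends on the pseudocount. E2F2 was at or near 0. It had 1 read in WT replicate 1, in sgPARP1 replicate 2 and in sgPARP1 replicate 3, and 0 in the other libraries, where a count of 0 allows up to 3 reads, or 0.0318 to 0.0365 FPKM, counting error only. E2F2 was therefore not tested.

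**Figure D3:**
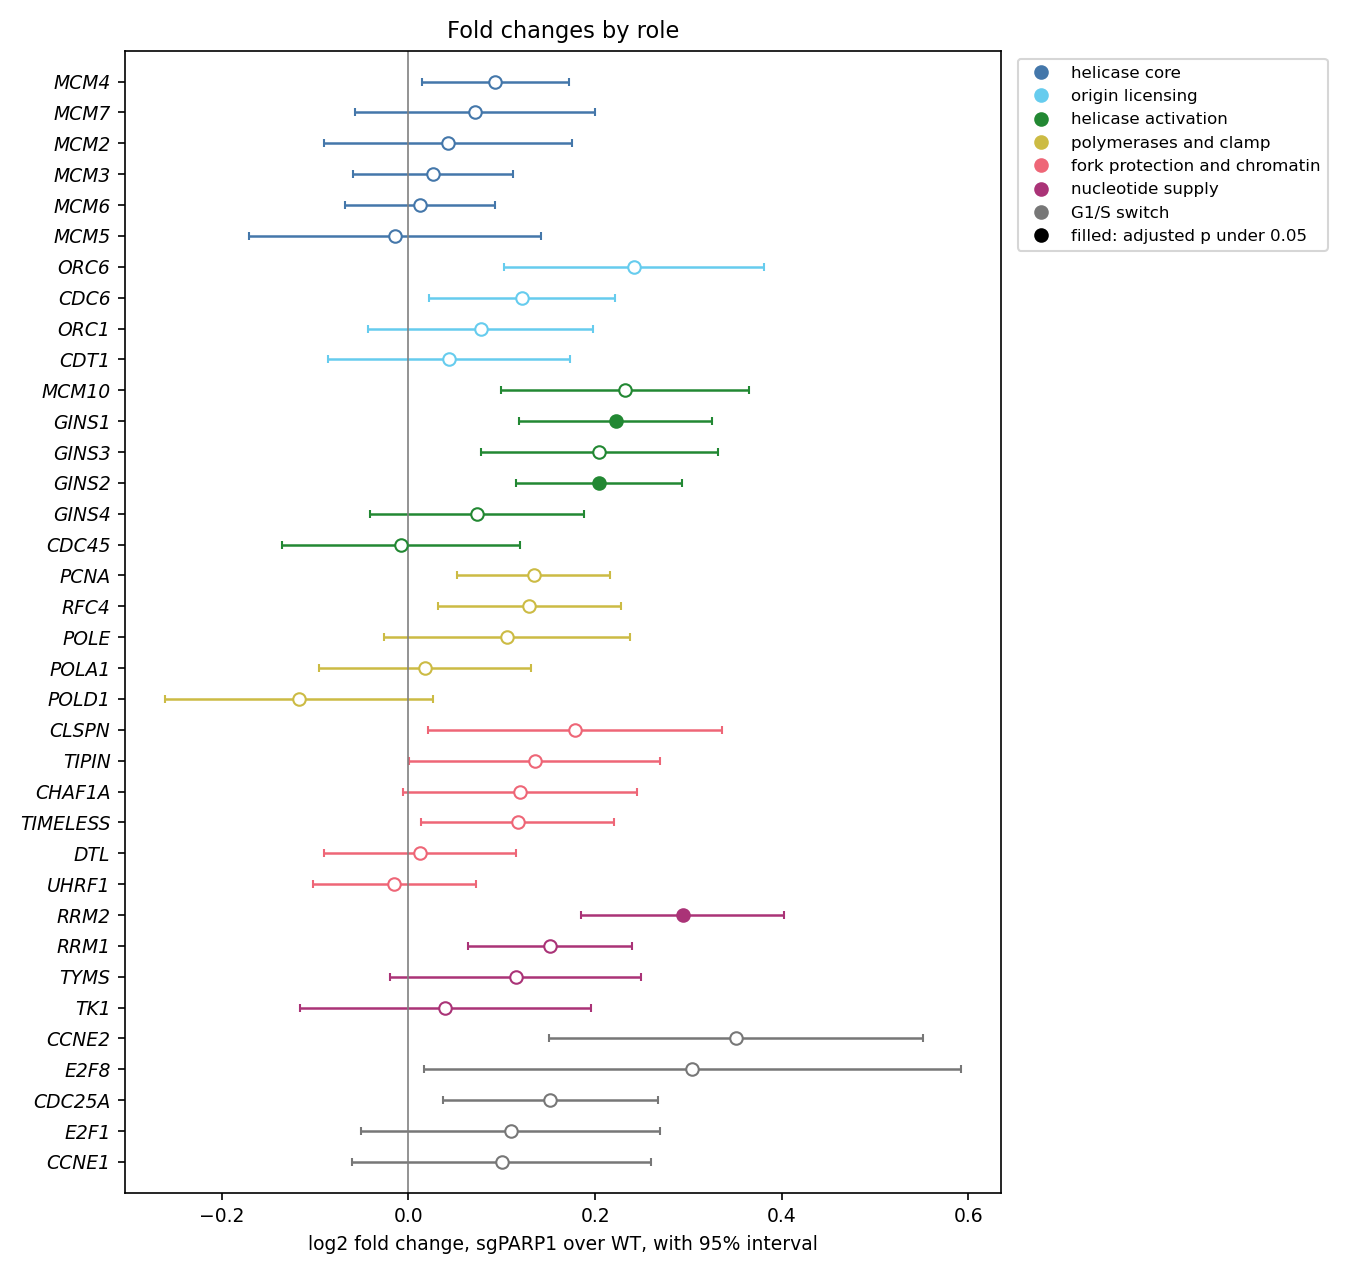
Log2 fold change of each tested member, sgPARP1 over WT, with its 95% interval from limma; colour gives the role and filled points passed the adjusted test. The 3 filled points are RRM2, GINS1 and GINS2, and 4 points, for POLD1, UHRF1, MCM5 and CDC45, lie below 0.

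Just short of the threshold were 6 members with an adjusted p from 0.05 to 0.07: CCNE2, MCM10, ORC6, RRM1, PCNA and GINS3. The count of calls is therefore sensitive to the test. As reported, 3 of 36 members and 1048 of 13167 genes passed. With testing limited to means of 5 FPKM or more, 8 of 33 members and 988 of 6601 genes passed. With limma's voom on the recovered reads, 7 of 36 members and 1561 of 13167 genes passed. The count of members was 0 to 1 when any 1 library was left out. Without WT replicate 2 or sgPARP1 replicate 1 no member passed, while 11 and 12 were higher and none lower before adjustment at a p under 0.05. With all 6 libraries, 12.1% of all tested genes were higher and 12.3% lower at that unadjusted p. These shares were not counted with a library left out. The count of all genes past the adjusted test fell too when a library was left out, from 1048 to between 412 and 652. The genes around the 3 called members were close to 0: the median log2 fold change of the 20 nearest tested genes was 0.01 for RRM2, −0.05 for GINS1 and −0.05 for GINS2.

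**Figure D4:**
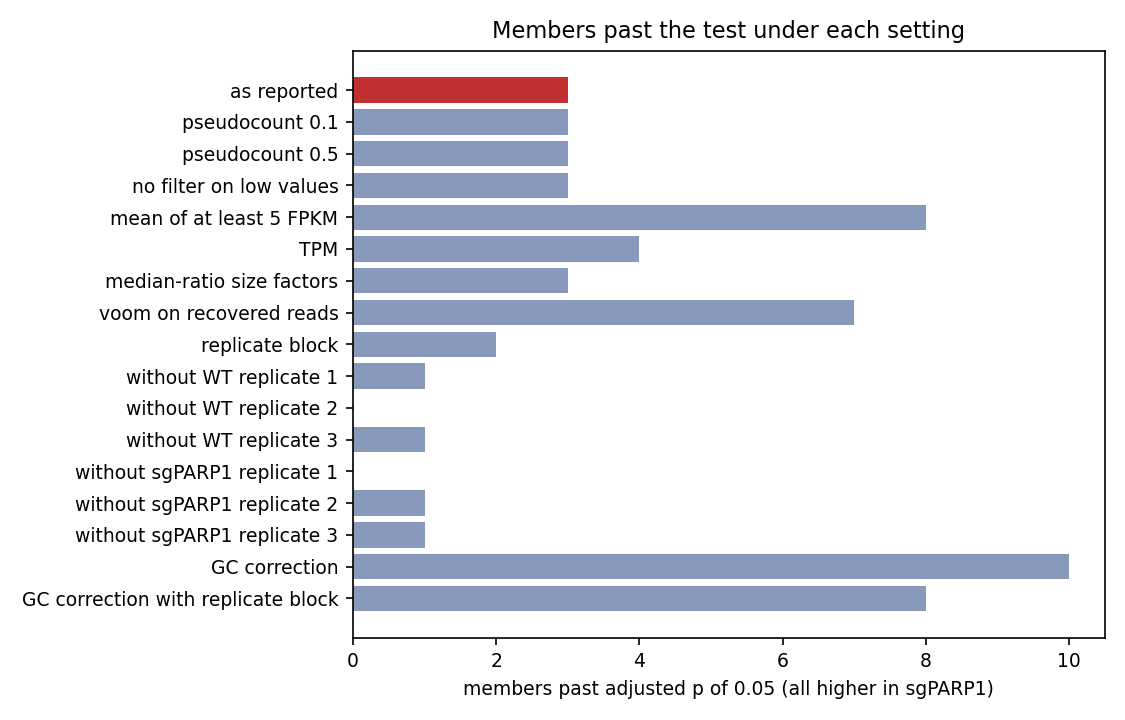
Number of the tested members with an adjusted p under 0.05 as reported and under each alternative, with bars starting at 0. The count is 3 as reported, lies between 0 and 1 when 1 library is left out and reaches 10 after the GC correction. Over all 13167 tested genes, 1048 passed as reported and 1651 after the GC correction.

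The members differed among themselves in base composition, and libraries of 1 group differed along the same axis. GC content of the longest GENCODE 29 transcript ran from 36.9% for CCNE2 to 65.0% for POLD1. Across the 36 members the difference between WT replicates 1 and 2 followed GC, with a Pearson correlation of 0.82 and a Spearman correlation of 0.78. These points share the same 2 libraries and are not independent. Over 12842 tested genes the same correlations were 0.22 and 0.43. WT replicate 1 was the highest WT library in 14 members, whose median GC was 57.3%, MCM2, MCM5, MCM7 and POLD1 among them. WT replicate 2 was highest in 12 members with a median GC of 44.2%, and sgPARP1 replicate 2 was lowest of its group in 14 with a median of 55.8%.

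The fold change was lower at higher GC, with a Pearson correlation of −0.56 and a Spearman correlation of −0.49 across the 36 members. Across the 12842 genes these were −0.17 and −0.22. For sgPARP1 replicate 2 minus sgPARP1 replicate 3 they were −0.63 and −0.52 across the members. The sign for 2 libraries of a group depends on which is subtracted from which. The 18 members of lowest GC had a median log2 fold change of 0.14, and 14 of them separated the groups. The 18 of highest GC had a median of 0.07, and 3 of them separated the groups. Over tested genes of any GC, 16.1% had all 3 sgPARP1 values above WT. That share was not counted within the 2 GC ranges. In all tested genes of the same GC ranges the medians were 0.03 and −0.03. After a correction that removes each library's trend with GC, chosen after the data were seen, the medians of the 2 sets of 18 were 0.12 and 0.11. The corrected test called 10 members, all higher: the original 3 and CCNE2, CDT1, CHAF1A, E2F1, MCM10, RRM1 and TK1. It called 1651 of 13167 genes in all, against 1048 as reported. CDT1, TK1 and E2F1, at 62.5% to 64.9% GC, moved most among these, from log2 fold changes of 0.04, 0.04 and 0.11 to 0.14, 0.12 and 0.19. CDC45 was again at −0.01, and POLD1 moved from −0.12 to −0.02.

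**Figure D5:**
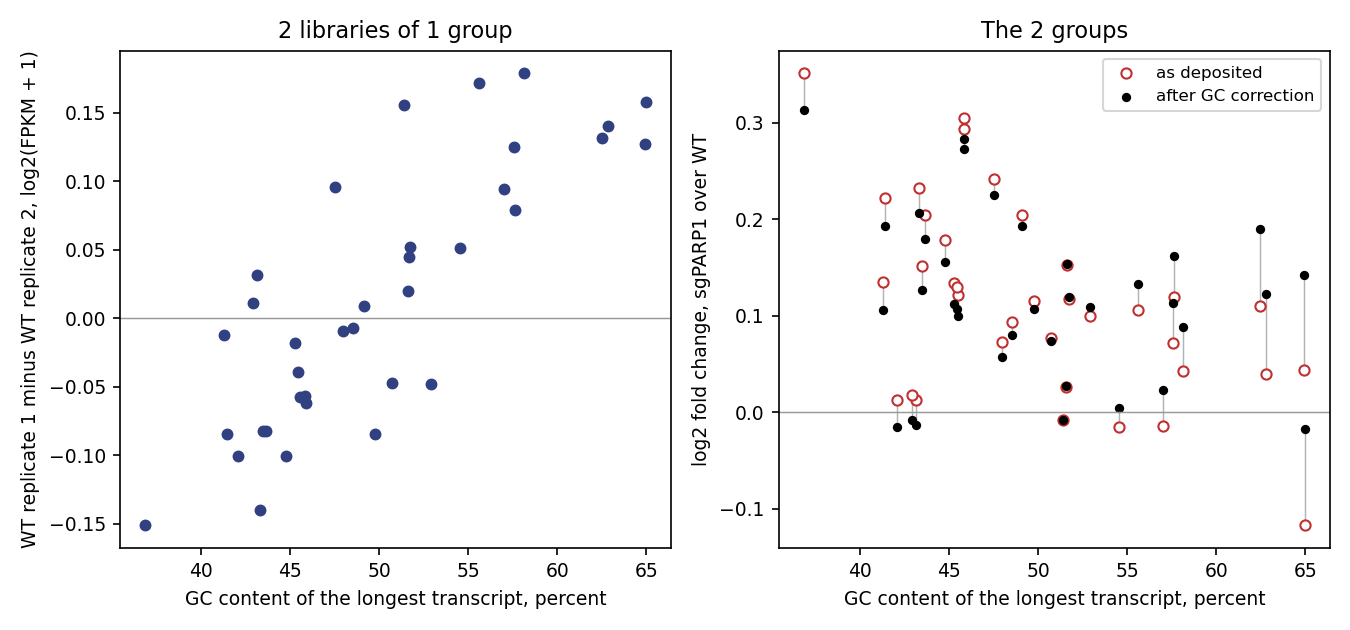
Left, difference between WT replicates 1 and 2 for each tested member against the GC content of its longest transcript in percent. Right, log2 fold change of the same members against GC, as deposited (open) and after the GC correction (filled), where CDT1 moves from 0.04 to 0.14 and CCNE2 from 0.35 to 0.31.

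Other genes of the pathway gave the following. Of 45 tested replication factors that are not members, 4 rose and none fell, against 3.52% and 4.44% of all tested genes, with a median log2 fold change of 0.08. DSCC1, part of an alternative clamp loader for cohesion, rose from 12.7 ± 0.71 to 16.1 ± 0.43 FPKM (SD, n = 3 each). POLE3, a histone-fold subunit of polymerase epsilon, rose from 54.3 ± 1.7 to 64.7 ± 1.6 FPKM. RPA2, a subunit of the single-strand binding protein RPA, and RFC1, the large subunit of the clamp loader, rose 1.18-fold and 1.16-fold. Of these 45, 13 were higher and 1 lower at a p under 0.05 before adjustment, against 12.1% and 12.3% of all tested genes. ASF1B, a histone chaperone of dividing cells, was listed at 0 in all 6 libraries, as was CCND2, and such a 0 can be a failed estimate.

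Of 30 tested G1/S regulators, 3 rose and 1 fell, against the same 3.52% and 4.44% of all tested genes, with a median of 0.03. CDKN1A, the p21 inhibitor of cyclin E and CDK2, fell from 63.6, 61.3 and 65.6 FPKM in WT to 45.6, 35.7 and 43.9 FPKM in sgPARP1, with no overlap and a log2 fold change of −0.60 (limma adjusted p = 0.0116). The inhibitors of CDK4 and CDK6 encoded by CDKN2B and CDKN2C rose 1.25-fold and 1.22-fold, and CDKN1B, the p27 inhibitor, rose 1.2-fold. Inhibitors of the G1 kinases thus moved in both directions. CCND1, CDK2, CDK4 and RB1 did not pass, at log2 fold changes of 0.09, 0.03, 0.03 and 0.03. Of 29 tested mitotic genes 9 rose and none fell, again against 3.52% and 4.44%, with a median of 0.14. KIF23, MAD2L1, CCNB1 and CCNB2, which serve cytokinesis, the spindle checkpoint and entry into mitosis, rose 1.2-fold, 1.2-fold, 1.18-fold and 1.18-fold. The difference between the mitotic and the replication genes was not tested.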

How the data were processed

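Total RNA of 6 libraries was made into mRNA libraries and sequenced, per the labels' protocols. The authors deposited 1 table of FPKM per gene, with gene lengths and hg38 positions. The submitters' processing notes name hg38, GRCm38 and mm10 with no role, and the 37 members overlap their GENCODE 29 genes in hg38. The aligner, counter and strand setting were not given in the sources used here.

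Samples were grouped by title and genotype label. From the FPKM, reads per gene were recovered as whole multiples of 1 read, within 0.02 read for 100% of the values up to 200 reads that were checked, in libraries of 14842498 to 17305129 reads. Because the deposited unit is FPKM, the test was limma 3.58.1 (R 4.3.3) with an intensity trend on log2(FPKM + 1), over 13167 genes averaging 0.5 FPKM or more, with Benjamini-Hochberg adjustment at 0.05. A fold change on this scale understates that of low genes, and ratios are of mean FPKM. An exact permutation test of 3 against 3 cannot go below 0.1 and was not used. The code was tested on simulated data.

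The members and lists were chosen with earlier results of these data known. Library values are given for members past the test and for the member with the largest fold change and the highest level in each role. CDC45, GINS3, GINS4, MCM2 to MCM7 beyond these, POLD1, CCNE1 and E2F8 were added after their values were seen. Alternatives were the pseudocount, the filter, TPM, median-ratio scaling, voom on the recovered reads, a replicate block, leaving out each library and a GC correction by loess with a span of 0.5, which 325 tested genes lacked GC for.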

Additional observations from a re-analysis of the deposited data

How the results depend on the processing

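The count of members higher, 3 as reported, was 8 with a mean of at least 5 FPKM, 7 with voom and 0 to 1 when 1 library was left out. It was 10 with the GC correction and 8 with the GC correction and replicate block, both chosen after the data were seen. Over all genes, 1048 of 13167 passed in either direction as reported and 988 of 6601 with a mean of at least 5 FPKM. Of 13167 genes, 1561 passed with voom, 1651 with the GC correction and 1058 with the GC correction and replicate block. The count lower was 0 throughout, and the members' median was 0.095 to 0.12 with 1 library left out. Over all genes, 463 higher became 278 without a filter, 232 with the replicate block, 812 with the GC correction and 172 to 283 with a library left out. The 585 lower became 309 without a filter, 916 with voom, 318 with the replicate block and 229 to 376 with a library left out. Mitotic genes higher, 9 as reported, were 4 without a filter, 1 with the replicate block and 1 to 3 with a library left out. Other replication factors higher, 4 as reported, were 2 with the replicate block, 7 with the GC correction, where 1 was lower, and 1 to 3 with a library left out. G1/S regulators higher, 3 as reported, were 5 with the GC correction and 1 to 3 with a library left out. The cause of these shifts was not tested, beyond the fewer samples or genes of a setting. With the GC correction, with or without the block, MCM5 was at 0.023, MCM6 at −0.013, POLA1 at −0.0084, UHRF1 at 0.0047 and DTL at −0.015, the other side of 0. With a library left out the sign also turned for MCM5 (−0.075 to 0.039), CDC45 (−0.037 to 0.041), UHRF1 (−0.031 to 0.0052), DTL (−0.013 to 0.037), MCM6 (−0.0050 to 0.033), POLA1 (−0.010 to 0.039) and TK1 (−0.0066 to 0.093). Same-numbered libraries had deviations correlated at 0.04, 0.08 and −0.03, so the numbers were not taken to pair the samples. With the replicate block 2 members passed, RRM2 and CCNE2, and 550 genes in all. E2F8, with the fewest reads of a tested member, had the largest standard error of the 36, 0.121.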
